A study of Arabidopsis thaliana with 4 samples.

Results

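The genes described here are 6 regulators linked to WRKY transcription factors and salicylic acid (SA): the receptor kinase gene AT1G51890, the lipase-like gene SAG101 (AT5G14930), the transcription factor genes WRKY53 (AT4G23810) and WRKY6 (AT1G62300), the VQ motif gene AT4G20000 and the glutaredoxin gene GRX480 (AT1G28480). They were chosen by name with earlier results of these data known, and each has a probe set that the array annotation assigns to 1 gene only. They are 6 of 13333 genes with such a probe set, and other WRKY and SA-linked genes with one are described beside them. Roots of Arabidopsis thaliana seedlings, Columbia-0 wild type, were exposed to the endophytic fungus P. indica (Piriformospora indica) on an agar plug, or to a plug without hyphae (mock). Root RNA was taken after 2 d or 6 d and analysed on ATH1 arrays. Each of the 4 groups, mock and P. indica at either time, is represented by 1 array, and both treatments used the same kind of plate and membrane and equal light. According to the labels the seedlings of the 2 d arrays were 12 d old and those of the 6 d arrays 16 d old. At 2 d the hyphae had not reached the roots, whereas they were in contact at 6 d. Contact, seedling age and length of exposure changed together between the time points, so they cannot be told apart.

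WRKY proteins are plant transcription factors that bind W-box elements in promoters, among them those of many defense genes. SA is the hormone of defense against biotrophic microbes, and part of its transcriptional output runs through NPR1 and the TGA factors. Receptor kinases at the cell surface and the EDS1 family of lipase-like proteins inside the cell act upstream of both. VQ motif proteins bind WRKY factors and modify their activity. In roots, these components are known from responses to pathogens as well as to beneficial microbes.

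All values are MAS5 signals, which are linear intensities of a set of short probes. No condition was replicated, therefore differences are given as sizes only, and signals of different genes cannot be set against each other. A floor of 22.2, the mean of the arrays' 40th percentiles on the log2 scale, marks the signal under which differences were not read, and a gene was counted where at least the brighter of the 2 arrays compared exceeded it. At 2 d 14118 probe sets were counted and at 6 d 14029. Each of the 6 genes has 1 probe set, none with a suffix for cross-hybridization, and 5 of them lay above the floor on all 4 arrays. The exception was SAG101 at 2 d. A listed gene is said to have a probe set only where the annotation used assigns one to that gene alone. This annotation leaves 8730 probe sets without a gene, so a listed gene without a probe set may still be on the array. The labels name root as source and tissue, but the RNA protocol in them speaks of roots and shoots, and a description of early embryos goes against the organism and the tissue. The root beta-glucosidase gene PYK10 and the root hair expansin gene EXPA7, the 2 of 14 listed root genes with a probe set, had a summed signal of 3301 to 4632 on the arrays. Of 12 listed genes of green shoot tissue 4 have a probe set, and none was at 0. Summed over these, the signal was 425 (mock) and 317 (exposed) at 2 d, and 559 and 802 at 6 d. Their part in the results was not tested, and a larger share of cells of a type cannot be told apart from more RNA per cell in such samples.

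All genes that could be read had a higher signal in P. indica-exposed than in mock-treated roots. At 2 d this was the case for 5 of 5 counted genes, with a median log2 ratio of 1.02, compared to a median of -0.03 over all counted probe sets, of which 44.1% were above 0. At 6 d it was the case for 6 of 6 genes, with a median of 0.60 compared to -0.02 and 46.8%. The differences were moderate. None of the genes was more than 3-fold higher at 2 d, a limit passed by 0.29% of all counted probe sets, and none at 6 d, where 0.107% passed it. None was more than 3-fold lower, compared to 0.0567% at 2 d and 0.0% at 6 d. With a limit of more than 2-fold, AT4G20000, GRX480 and AT1G51890 passed at 2 d, which is 3 of 5 genes compared to 0.737% of all counted probe sets. None of the 6 genes passed 2-fold at 6 d, where the share of all was 0.456%. In the opposite direction no counted gene passed 2-fold at either time point, compared to 0.283% at 2 d and 0.0428% at 6 d. These 3 genes are the ones that the paper names from data of the same series as up-regulated early. Their direction at 2 d is therefore not independent evidence. The paper analysed only genes with a more than 3-fold difference, a limit that none of these 3 genes passed on the arrays used here. It reports 3 independent experiments and qRT-PCR checks of randomly chosen genes, which are not part of the values used here. All 6 genes were chosen with earlier results of these data known. The comparisons with all counted probe sets, at 2 d and at 6 d, are therefore no independent evidence of a shared direction either. The count of 3 rests on low mock signals: under a 60th percentile floor, or with 32 added to every signal, none of the genes passed 2-fold.

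**Figure D1:**
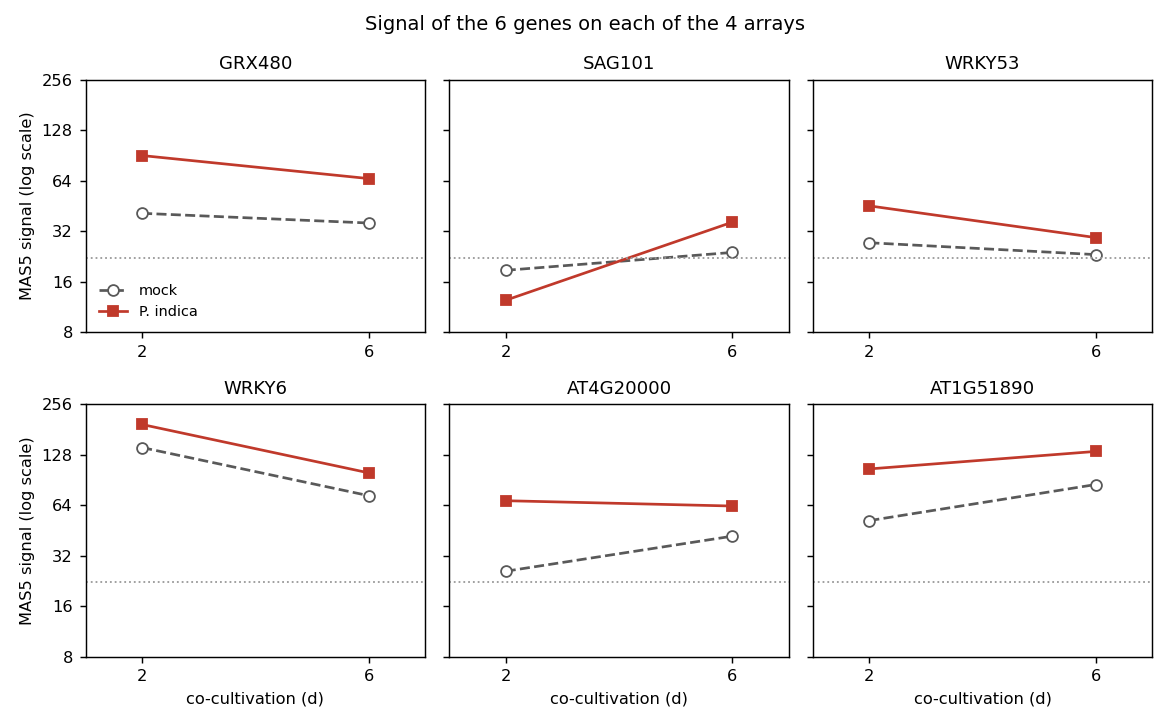
MAS5 signal (log2-spaced axis) of each of the 6 genes against days of co-cultivation, with open circles and dashed lines for mock, filled squares and solid lines for P. indica, 1 array per point, and the floor of 22.2 as a dotted line. The exposed roots lie above the mock-treated roots at both time points for 5 genes, while both SAG101 signals at 2 d lie under the floor.

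AT1G51890 codes for a leucine-rich repeat receptor kinase, a class of proteins that perceive signals outside the cell. The mock-treated roots had a signal of 51.9 and the exposed roots one of 105.5 at 2 d, and 85.2 and 134.2 at 6 d. The lowest value was thus that of the 2 d mock roots and the highest that of the 6 d exposed roots. The difference was 2.03-fold at 2 d and 1.58-fold at 6 d, with log2 ratios of 1.02 and 0.66. A larger ratio was found for 97 of the 14118 probe sets at 2 d and for 235 of 14029 at 6 d. Among probe sets of like signal (mean log2 signal within 0.5), the log2 ratios had an SD of 0.36 at 2 d and 0.25 at 6 d, and 0.94% and 1.09% of them reached the ratio of AT1G51890.

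AT1G51890 stands in a row of related kinase genes on the chromosome, and of 43 listed genes of its subfamily (LRR I) 33 have a probe set. Of the other 32, 13 were counted at 2 d and 11 at 6 d. No value or lower bound among them passed 2-fold. At 2 d 10 of the 13 had a ratio above 0, with a median of 0.23, and at 6 d 10 of 11, with a median of 0.26. The largest ratios were those of AT3G21340, with at least 0.79 at 2 d and 0.60 at 6 d, and AT2G28960, with 0.72 and 0.03. The 2 genes with the next largest values were AT2G28970, with -0.02 and 0.44, and AT1G51830, with 0.04 and 0.34. The near neighbour AT1G51860 had log2 ratios of 0.04 and 0.26 and AT1G51850 of 0.26 and 0.31, so that AT1G51890 had the largest ratio of its counted subfamily at 6 d. The same held at 2 d if the bound of AT3G21340 is taken as its value. AT1G51890 was chosen with earlier results of these data known, so its rank is not independent evidence.

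SAG101 forms complexes with EDS1 that relay signals of intracellular immune receptors, and it was first described from senescing leaves. The mock-treated roots had a signal of 18.7 and the exposed roots one of 12.4 at 2 d, both under the floor, so no fold is given. At 6 d the mock value was 23.9 and the exposed value 36.2, a 1.52-fold difference. SAG101 was thus the gene of the group that was read only at the later time point. Its log2 ratio of 0.60 at 6 d was exceeded by 298 of 14029 probe sets, and 3.74% of the probe sets of like signal reached it. The green shoot genes were also higher in exposed roots at 6 d, by a median log2 ratio of 0.51 over the 4 genes, and the part of shoot tissue in the SAG101 value was not tested. From the list of the EDS1 complex and its helper receptors, with 10 genes, EDS1B (AT3G48080), a close copy of EDS1 whose probes may not tell the copies apart, is the other gene with a probe set. The mock-treated roots had a signal of 26.3 and the exposed roots one of 41.3 at 2 d and 38.0 and 50.8 at 6 d, with log2 ratios of 0.65 and 0.42.

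WRKY53 is a transcription factor of leaf senescence and basal defense. The mock-treated roots had a signal of 27.3 and the exposed roots one of 45.3 at 2 d, and 23.2 and 29.3 at 6 d. The 2 d exposed value was the highest and lay 1.03 above the floor on the log2 scale, whereas the 6 d mock value lay 0.06 above it. The difference was 1.66-fold at 2 d and 1.26-fold at 6 d. The log2 ratio of 0.73 at 2 d was reached by 2.69% of the probe sets of like signal, whose SD was 0.38. At 6 d the ratio of 0.34 was close to the SD of 0.32 of such probe sets, and 13.1% of them reached it. The 6 d difference of WRKY53 is therefore no larger than what is common at this signal.

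WRKY6 acts in senescence, defense and the phosphate response, and its signal spanned 1.41 on the log2 scale over the arrays, the widest spread among the 5 genes above the floor on all of them. The mock value was 141.5 and the exposed value 194.2 at 2 d, and 73.1 and 100.0 at 6 d. Both 2 d arrays were thus higher than both 6 d arrays, and within each time point the exposed roots were higher. The ratio was 1.37-fold at 2 d and 1.37-fold at 6 d. The log2 ratios of 0.46 and 0.45 were reached by 3.14% and 3.85% of the probe sets of like signal. Its signals lay well above the floor on all arrays, and its ratios changed little with the processing, with a range of 0.38 to 0.49 at 2 d and of 0.33 to 0.48 at 6 d over 8 settings.

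Of 72 listed WRKY genes 7 have a probe set with a single gene, and 6 of these were counted. WRKY42, a relative of WRKY6, had signals of 0.9 to 1.0 and lay under the floor on all arrays. Beside WRKY53 and WRKY6 the other 4 had smaller ratios at 2 d: 0.16 for WRKY47, 0.02 for WRKY1 (AT2G04880), -0.18 for WRKY20 and -0.18 for WRKY22, which acts downstream of flagellin perception. At 6 d WRKY20 had a ratio of 0.34 and WRKY22 one of at least 0.14, while WRKY1 had -0.07 and WRKY47 -0.19. The median over these 4 was -0.08 at 2 d and 0.04 at 6 d. The paper names the SA-linked WRKY54 and WRKY70 among the defense genes up-regulated after 2 d. Neither has a single-gene probe set in the annotation used, so they were not analysed here. The medians over 4 genes therefore do not describe the whole family.

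**Figure D2:**
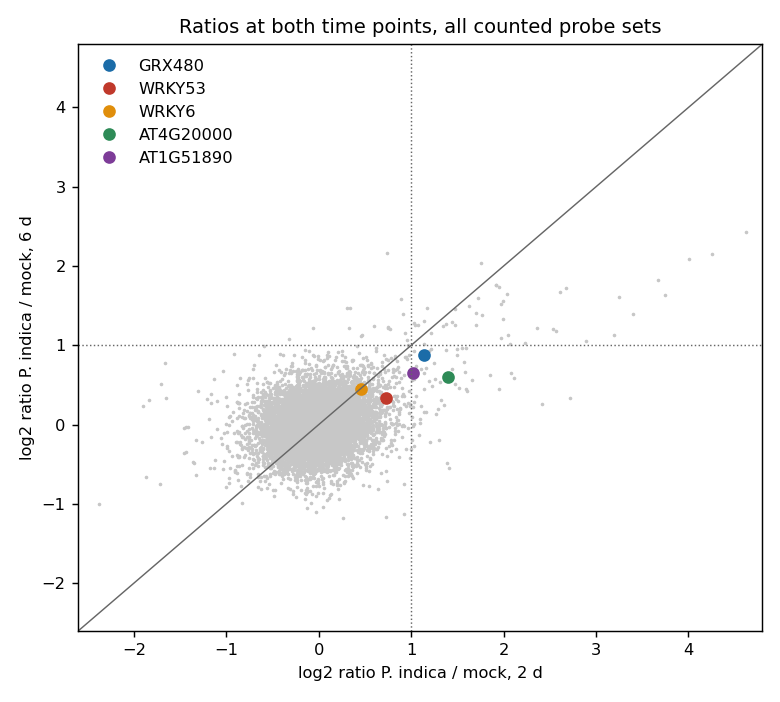
Log2 ratio of P. indica over mock at 6 d against that at 2 d for 13538 probe sets that were counted on both days (grey), with 5 of the 6 genes in colour, the line of equal ratios and dotted lines at 2-fold. SAG101 is not shown because it was not counted at 2 d; the 5 genes lie on or below the line of equal ratios, WRKY6 on it and AT4G20000 farthest from it.

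The VQ motif gene AT4G20000 had the largest ratio of the 5 genes counted at 2 d. The mock-treated roots had a signal of 25.9 and the exposed roots one of 68.2 at 2 d, and 41.9 and 63.4 at 6 d. The 2 exposed values were close to each other, and the 2 d mock value was the lowest of the 4. The difference was 2.63-fold at 2 d and 1.51-fold at 6 d, with log2 ratios of 1.40 and 0.60. At 2 d 53 of 14118 probe sets had a larger ratio, and 0.608% of those of like signal reached it. The size at 2 d depends on the mock value of 25.9, which lies 0.22 above the floor on the log2 scale: under a 60th percentile floor the log2 ratio fell to 0.15 at 2 d and to 0.05 at 6 d. Of 31 listed VQ genes 14 have a probe set, and of the other 13 genes 6 were counted at each time point. At 2 d 5 of these 6 had a ratio above 0, with a median of 0.18, and at 6 d 6 of 6, with a median of 0.30. The largest ratios above the floor on both arrays were those of AT4G15120, with log2 ratios of 0.59 and 0.58 and signals of 28.6 and 42.8 at 6 d. AT5G46780 had ratios of 0.14 and 0.43, AT4G39720 of 0.22 and 0.40, and IKU1 (AT2G35230), a regulator of seed size, of 0.25 and 0.07.

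GRX480 is a glutaredoxin of the CC type that is induced by SA, binds TGA factors and can repress jasmonate-responsive genes. The mock-treated roots had a signal of 40.9 and the exposed roots one of 90.4 at 2 d, and 35.8 and 65.9 at 6 d. Both exposed values were higher than both mock values. The difference was 2.21-fold at 2 d and 1.84-fold at 6 d, and the log2 ratio of 0.88 at 6 d was the largest of the 6 genes at this time point. It was exceeded by 75 of 14118 probe sets at 2 d and by 87 of 14029 at 6 d. Among probe sets of like signal 0.827% and 1.04% reached it. Under a 60th percentile floor its log2 ratios were 0.56 and 0.10.

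Of 21 listed CC-type glutaredoxin genes 17 have a probe set, and GRX480 had the largest ratio of the counted ones at both time points. Of the other 16 genes 6 were counted at each time point, and no value or lower bound among them passed 2-fold. The median of their log2 ratios was -0.05 at 2 d, compared to -0.31 at 6 d. At 2 d AT4G15680 had a ratio of -0.71, a lower bound of the difference since the exposed signal of 14.4 lay under the floor, so that a 2-fold limit could not be read, and ROXY2, a gene of anther development, had -0.53. At 6 d AT1G06830 had a ratio of -0.93, from 55.3 in mock-treated to 29.0 in exposed roots, and AT3G62960 one of -0.77, again a bound. ROXY2 had 0.16 and AT4G15680 a bound of -0.55 at this time point. The difference between GRX480 and its relatives was not tested. GRX480 and the list were chosen with earlier results of these data known, so its rank is not independent evidence.

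**Figure D3:**
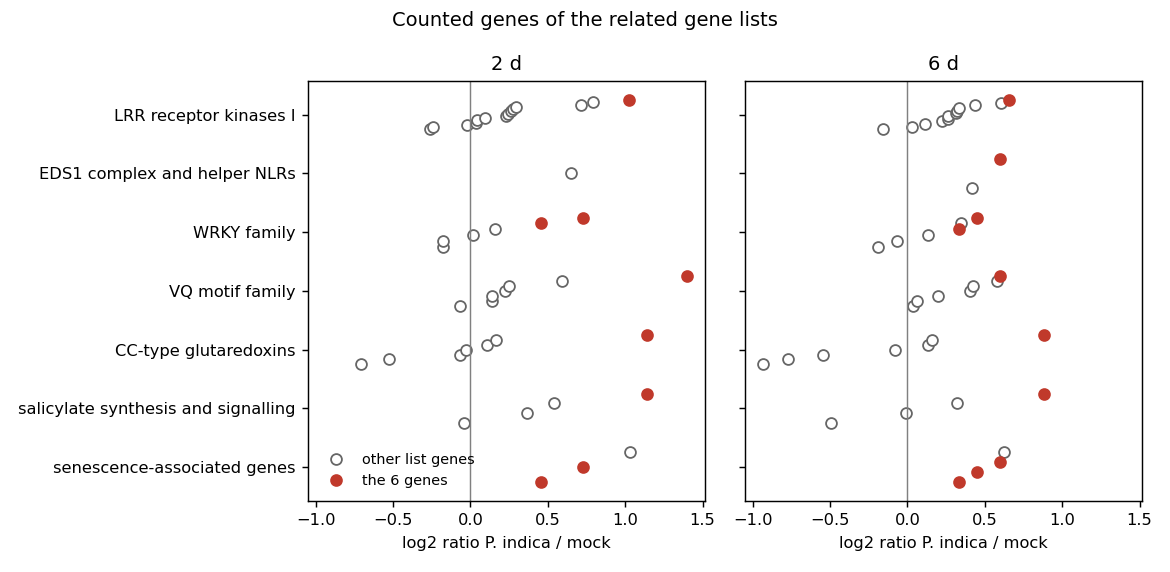
Log2 ratio of P. indica over mock at 2 d (left) and 6 d (right) for every counted gene of 7 related lists, 1 point per gene, with the 6 genes in filled red and the other list genes open. GRX480, chosen with earlier results of these data known, lies to the right of all other counted CC-type glutaredoxins at both time points. The genes of the LRR I and VQ lists lie mostly above 0.

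Of 32 listed genes of SA synthesis and signalling 6 have a probe set, and their ratios at 2 d were smaller than that of GRX480 in the 3 other genes counted. Since GRX480 was chosen with earlier results known, this order is not independent evidence. UGT76B1 (AT3G11340), a glucosyltransferase that conjugates SA, had signals of 276.7 (mock) and 403.2 (exposed) at 2 d, and 217.3 and 272.0 at 6 d, with log2 ratios of 0.54 and 0.32. Another SA glucosyltransferase gene, UGT74F1, had 0.36 and -0.01. SARD4 (AT5G52810), which acts in the synthesis of pipecolic acid, had -0.04 and -0.49. BSMT1 and the NPR1 relative NPR2 (AT4G26120) lay under the floor on all arrays. The jasmonate-responsive genes PDF1.2 (AT5G44420) and THI2.1 (AT1G72260), the 2 of 16 listed jasmonate and ethylene genes with a probe set, also lay under the floor, with signals of 4.0 to 8.4 and 4.4 to 9.1, so a repression of PDF1.2 could not be read. None of the 10 listed TGA genes has a probe set with a single gene. Of 20 listed senescence genes 5 have a probe set. Beside WRKY53, WRKY6 and SAG101 these are YLS5 (AT2G38860), which the paper also names for 2 d, and SAG29, which lay under the floor. YLS5 had signals of 211.6 and 433.1 at 2 d and of 408.2 and 630.5 at 6 d, with log2 ratios of 1.03 and 0.63.

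The ratio was larger at 2 d than at 6 d for 4 of 5 genes counted at both time points and differed by 0.0047 for WRKY6, with a median difference of 0.37 between the log2 ratios, compared to -0.01 over the 13538 probe sets counted at both, of which 48.9% had the larger ratio at 2 d by any amount. The difference was 0.80 for AT4G20000, 0.39 for WRKY53, 0.37 for AT1G51890, 0.26 for GRX480 and 0.00 for WRKY6. Over all probe sets this difference had a robust SD of 0.29, so that those of GRX480 and WRKY6 lay within it and those of WRKY53 and AT1G51890 were not much larger. The difference of AT4G20000 fell to 0.11 under a 60th percentile floor and to 0.42 with 32 added. The 2 time points have separate mock arrays, and the difference was not tested. AT4G20000, GRX480 and AT1G51890 are named in the paper as up-regulated early, from data of the same series. All genes of the group were chosen with earlier results of these data known. The comparison with all probe sets is therefore no independent evidence of a larger ratio at 2 d.

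The signals of each treatment were also compared between the time points, which with 1 array per condition cannot show which array of a pair deviated. The arrays of the 2 time points differ in other respects too: 18 of 18 hybridization control probe sets were brighter on the 6 d than on the 2 d mock array, with a median log2 difference of 0.54 (0.59 between the exposed arrays), while within a time point they differed by 0.07 at 2 d and 0.10 at 6 d. Age and array cannot be told apart here, nor can contact with the hyphae in exposed roots. For AT4G20000 the mock signal was 1.62-fold higher at 6 d than at 2 d and the exposed signal 1.08-fold lower. For AT1G51890 both were higher at 6 d, by 1.64-fold in mock-treated and 1.27-fold in exposed roots. For GRX480 and WRKY53 both were lower at 6 d, by 1.14-fold and 1.18-fold in mock-treated and by 1.37-fold and 1.55-fold in exposed roots. For WRKY6 the signal at 6 d was 1.94-fold lower in both. For SAG101 in exposed roots the 6 d signal was higher by at least 1.63-fold, and whether it passed 2-fold could not be read. The smaller ratio at 6 d thus went along with a higher mock signal for AT4G20000 and AT1G51890, and with a lower exposed signal for GRX480 and WRKY53. None of the 5 genes above the floor on all arrays passed 2-fold between the time points, compared to 1.12% of all probe sets that were higher and 2.35% that were lower in mock-treated roots, and 2.02% and 2.77% in exposed roots.

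These patterns over the 4 arrays were compared with those of 6730 single-gene probe sets above the floor on all arrays, by the Euclidean distance between log2 signals after the mean of each gene was taken off. Among the genes of the group, AT4G20000 and AT1G51890 were the closest pair, with a distance of 0.36, and AT1G51890 and WRKY6 the farthest, with 1.55. The 3 nearest genes to GRX480 were HEMA2 (AT1G09940), an enzyme gene of tetrapyrrole synthesis, at 0.14, AT2G18690 at 0.20 and the aspartyl protease gene AT3G59080 at 0.21, and 4 genes lay within 0.25. HEMA2 had signals of 42.7 and 88.2 at 2 d and of 39.6 and 65.8 at 6 d. For AT4G20000 they were AT1G18980 at 0.15, the glycosyltransferase gene UGT73D1 at 0.21 and the cytochrome P450 gene CYP71B6 at 0.23, with 4 genes within 0.25. CYP71B6 was also the nearest gene to AT1G51890, at 0.19, followed by AT1G67910 at 0.20 and YLS5 at 0.21, with 3 genes within 0.25. WRKY53 had 33 genes within 0.25, the nearest being AT5G05250 at 0.03, AT3G49190 at 0.09 and AT3G62780 at 0.09. WRKY6 had 10, with AT2G48130 at 0.09, AT1G61590 at 0.09 and AT5G12880 at 0.15 as the nearest. The pattern of SAG101 was not compared, since it lay under the floor at 2 d.

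**Figure D4:**
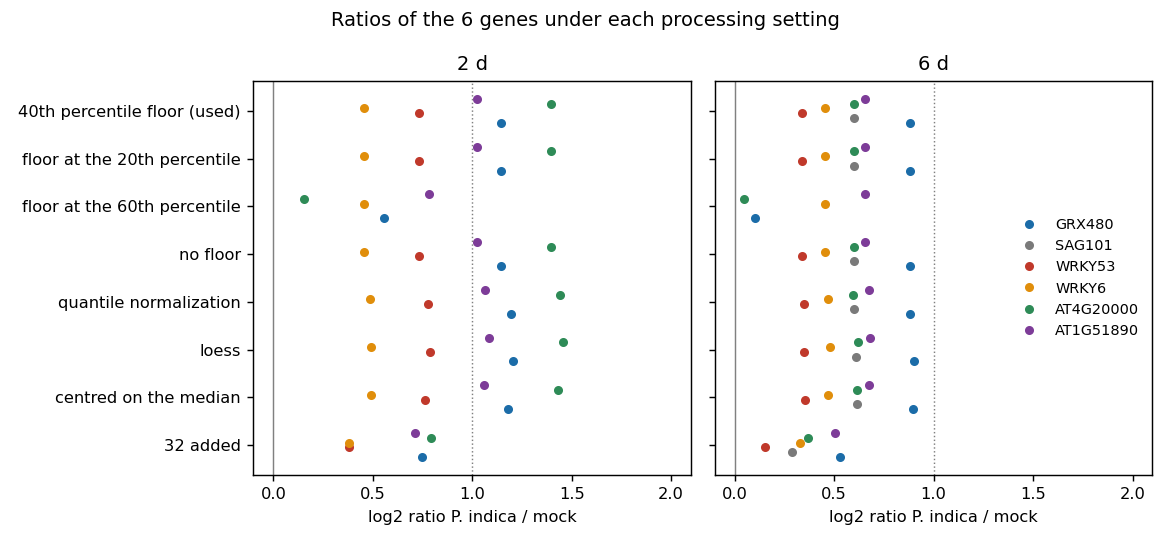
Log2 ratio of P. indica over mock at 2 d (left) and 6 d (right) for each of the 6 genes (colours) under the floor used and 7 other settings, with a dotted line at 2-fold. No ratio falls below 0, although a changed floor or an added value cannot reverse a sign. GRX480 and AT4G20000 move most, to 0.56 and 0.15 at 2 d under a 60th percentile floor, and SAG101 is shown at 6 d only.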

How the data were processed

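The authors' deposited values are MAS5 signals (linear array intensities) for 22810 probe sets on 4 ATH1 arrays. No source used here gives the MAS5 version or its settings. Between arrays the 75th percentile of log2 signals varied by 0.025, so the deposited scale was kept. After 64 control probe sets were left out, 22746 remained. Signals under the floor were set to it, and log2 ratios of P. indica over mock were formed within each time point. The study used a 3-fold threshold and a t-test over several experiments in ROBIN, which was not applied to 1 array per condition, and no p-value was computed. The sources used here do not say whether experiments were pooled for an array.

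The probe annotation, updated to TAIR10.1 locus codes through Entrez Gene identifiers, pairs 13484 probe sets with 1 gene, 503 with several and 8730 with none. The 6 genes and all gene lists were chosen with earlier results of these data known. Per list, up to 4 genes with the largest ratios were named, and per gene the 3 nearest patterns. A few list genes beyond the rule were named after their values were seen: AT1G51850, AT1G51860, WRKY1, WRKY42, genes under the floor and the marker genes. No sequence was used. The ratios and the 3-fold counts were tested on simulated data. The changed genes there were brighter than most of the 6 genes, and the noise was smaller than among probe sets of like signal. Counts past 2-fold and signals near the floor were not covered. Python 3.11.15, numpy 2.4.6, pandas 2.3.3, statsmodels 0.14.6 and matplotlib 3.10.9 were used.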

Additional observations from a re-analysis of the deposited data

Results flagged for a closer look

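For 11 genes of the related lists, and for none of the 6 genes, the log2 ratios at 2 d and 6 d had opposite signs, with 1 array per condition, and these differences between the time points were not tested. Given as the ratio at 2 d minus that at 6 d, the difference was 1.04 for AT1G06830, 0.37 for UGT74F1, 0.34 for WRKY47, 0.24 for AT4G33040 and 0.08 for WRKY1. It was -0.69 for ROXY2, -0.52 for WRKY20, -0.46 for AT2G28970, -0.31 for WRKY22, -0.26 for AT3G56880 and -0.20 for AT3G62930.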

How the results depend on the processing

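The ratios were above 0 in all 34 alternative values of 5 genes at 2 d and all 40 of 6 genes at 6 d. A changed or removed floor, or 32 added, cannot reverse the sign of a ratio, so only settings that rescale the arrays could have. SAG101 at 2 d is left out of these values. It was counted only under a 20th percentile floor or none, where its log2 ratio was -0.59 from signals under the floor used. In both of these settings the log2 difference of SAG101 between 6 d and 2 d in exposed roots was 1.55, compared to at least 0.71 with the floor used. Of 186 alternative values of single genes 171 moved by less than the robust SD over all probe sets and 15 by more. Where both signals lay above the floor used, a lower floor or none returns the same value. Part of the 171 values could therefore not have moved. A 60th percentile floor, under which WRKY53 and SAG101 were not counted, took the median ratio of the genes to 0.51 at 2 d and 0.28 at 6 d, and 32 added took it to 0.71 and 0.35. In both settings 0 genes passed 2-fold at 2 d, and with a limit of 2-fold instead of 3-fold 3 did. This 2-fold count under other settings was added after seeing the data. The median difference between the time points in mock-treated roots, -0.04, turned to 0.081 for a floor at the 20th percentile and to 0.081 without a floor, and to 0.019 when 32 was added. The counts over all features past 3-fold were 41 higher and 8 lower at 2 d, and 15 and 0 at 6 d. In the same order they were 95, 27, 58 and 19 for a 20th percentile floor, 1110, 798, 1239 and 1027 without a floor, 20, 3, 8 and 0 for a 60th percentile floor and 21, 1, 3 and 0 when 32 was added. With a 2-fold limit they were 104, 40, 64 and 6, and with a 4-fold limit 22, 1, 5 and 0. All list probe sets lack a cross-hybridizing suffix, so leaving such probe sets out gave the same medians. Signals near the floor limit what can be read, above all for WRKY53 and SAG101. No paired analysis was possible because each condition has 1 array. A fit of treatment over both time points with time as a term was not run.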
